A study of Mus musculus with 9 samples.

Results

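The data cover 9 genes of the route by which cells load peptides onto MHC class I molecules, measured by RNA sequencing in melanocytes sorted by flow cytometry from mouse epidermis. They are Psmb8, Psmb9, Psmb10, Psme1, Tap1, Tap2, Tapbp, Erap1 and Nlrc5. The genes were taken by name, and all 9 were among the 16299 genes of the deposited table. Control tail libraries came from Spry1flox/flox mice. The knockout libraries, from tail or from back, came from Spry1flox/flox k14-Cre-ERT2 mice, in which the keratin 14 promoter drives a hormone-dependent Cre in basal keratinocytes, not in melanocytes. Every group thus carries the floxed Spry1 alleles, and there is no back group without Cre. Each group has 3 libraries. The labels do not say that these came from separate animals, and p-values therefore reflect only how far these samples differ among themselves. The labels used here give no age and no inducing treatment. Spry1 encodes a feedback inhibitor of receptor tyrosine kinase signalling. Its normalised counts (defined below) were 1510, 1074 and 1285 in the tail controls, 3590, 1758 and 587 in the tail knockouts, and 2283, 0 and 746 in the back knockouts. Since Cre is directed to keratinocytes, Spry1 in sorted melanocytes does not check the genotype labels.

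MHC class I molecules show peptides from inside the cell to T cells. The peptides are cut by the proteasome, whose constitutive catalytic subunits Psmb5, Psmb6 and Psmb7 can be replaced by Psmb8, Psmb9 and Psmb10 to form the immunoproteasome. Psme1 is a subunit of the PA28 cap that opens the proteasome. Tap1 and Tap2 form the pump that carries peptides into the endoplasmic reticulum, tapasin (Tapbp) holds the class I molecule next to the pump, and the aminopeptidase Erap1 trims the peptides there. Nlrc5 is a transactivator of class I genes and of several genes of this route. Interferons are well known inducers of these genes, in part through interferon regulatory factors.

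Of the 9 genes, 5 lie on chromosome 17 (GENCODE vM21, GRCm38). Psmb9 (chromosome 17, 34181987 to 34187764, minus strand), Tap1 (34187553 to 34197225, plus), Psmb8 (34197721 to 34201454, plus) and Tap2 (34203527 to 34216321, plus) lie side by side within 34.3 kb of the MHC. Tapbp (33915899 to 33929292, plus) lies 253 kb away on the same chromosome. Psmb10 (105935735 to 105938444, minus) and Nlrc5 (94434356 to 94527272, plus) are on chromosome 8, Erap1 (74639568 to 74693201, plus) on chromosome 13 and Psme1 (55578123 to 55581529, plus) on chromosome 14. All are protein coding. Annotated exons of Psmb9 and Tap1 overlap on opposite strands by 212 bases, which is 5.8% of the exon bases of Psmb9. Other genes on the opposite strand cover 24.9% of the exon bases of Tapbp (Gm19412), 14.7% of those of Psmb8 (Gm20496), 14.1% of those of Tap2 (Gm15821) and 11.5% of those of Erap1 (Cast). How strand was treated in counting is not given in the sources used here, so reads in those stretches cannot be assigned to one gene.

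RefSeq start-site windows (GRCm38.p6, 250 bases before to 50 after the start) were matched by symbol for 7 of the 9 genes. Those of 4 genes are shown, up to 30 bases after the start, because a head-to-head pair shares one and the others hold a match to an interferon-related motif. The windows are chr17:34187306-34187585 (plus strand) for Tap1, chr17:34197945-34198224 (plus) for Psmb8, chr13:74639603-74639882 (plus) for Erap1 and chr14:55578244-55578523 (plus) for Psme1. The RefSeq start of Psmb8 lies inside the GENCODE gene given above. Capitals mark motif matches.
Tap1: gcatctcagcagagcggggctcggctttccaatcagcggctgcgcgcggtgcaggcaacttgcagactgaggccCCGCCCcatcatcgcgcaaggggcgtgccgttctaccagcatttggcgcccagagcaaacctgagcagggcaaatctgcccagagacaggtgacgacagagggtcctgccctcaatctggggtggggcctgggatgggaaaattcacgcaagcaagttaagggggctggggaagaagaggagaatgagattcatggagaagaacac
Psmb8: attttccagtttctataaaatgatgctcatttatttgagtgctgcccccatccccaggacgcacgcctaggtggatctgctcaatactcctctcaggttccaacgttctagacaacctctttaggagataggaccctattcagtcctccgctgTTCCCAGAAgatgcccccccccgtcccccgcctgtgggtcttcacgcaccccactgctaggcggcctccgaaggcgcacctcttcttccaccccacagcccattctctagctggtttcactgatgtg
Erap1: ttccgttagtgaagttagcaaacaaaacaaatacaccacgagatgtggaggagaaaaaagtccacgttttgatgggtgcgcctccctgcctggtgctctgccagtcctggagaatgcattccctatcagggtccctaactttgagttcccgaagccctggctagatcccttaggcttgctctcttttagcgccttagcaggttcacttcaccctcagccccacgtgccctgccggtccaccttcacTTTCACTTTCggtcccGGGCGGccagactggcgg
Psme1: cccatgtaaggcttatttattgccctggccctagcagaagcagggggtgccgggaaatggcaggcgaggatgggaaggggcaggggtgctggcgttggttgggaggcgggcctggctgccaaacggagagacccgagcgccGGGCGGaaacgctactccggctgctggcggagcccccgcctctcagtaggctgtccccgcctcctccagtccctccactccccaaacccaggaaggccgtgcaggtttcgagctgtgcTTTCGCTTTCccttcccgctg
The Tap1 and Psmb9 windows share 275 bases, and their start sites face away from each other with 225 bases between them. Motifs were searched on both strands over the full windows. The interferon-stimulated response element, searched as GAAA, any 2 bases and GAAA, matched in Erap1, where the match spans the start site, and in Psme1, where it begins at base 10 of the transcript. It was found in 3.44% of all 32851 windows. The gamma-activated site, TTCNNNGAA, matched in Psmb8, 97 bases before the start, and in 8.3% of all windows. The GC box GGGCGG matched in Tap1, Psmb9, Tapbp, Erap1 and Psme1, in Tap1 and Psmb9 as one and the same site, and in 35.7% of all windows. A form of the NF-kB site, searched as GGGA, any 2 bases and TTCC, matched in none of the 7 windows and in 1.47% of all. No motif here overlaps another, and a match is a run of letters, not evidence of binding.

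The libraries differ in ways that touch the results. Counts were recovered from the deposited log2 values and divided by a size factor per library, which gives the normalised counts below. Recovered totals were 45658165 to 67891350 per library. Genes without a count numbered 4628 in the first and 6127 in the second back knockout library, compared with 854 to 1739 elsewhere. The third tail knockout and the third back knockout library form a set whose mean shift from the other 7 had been removed, gene by gene, before deposit. All controls are in the other set, so this step removed part of any knockout difference, and the normalised counts do not contain it. As a check of the labelled cell type, all 10 melanocyte markers were listed. The 7 of them with recovered counts summed to at least 653710 normalised counts in every library, and keratinocyte markers were also present (38508 to 99934 in the tail controls for 6 basal markers). In bulk samples such as these, fewer cells of a type and less RNA per cell cannot be told apart.

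Within the immunoproteasome, Psmb8 and Psmb9 were lowest in every tail control, intermediate in the tail knockouts and highest in the back knockouts. Psmb8, the chymotrypsin-like subunit, had normalised counts of 687, 470 and 143 in the 3 control tail libraries. It had 1169, 2241 and 1319 in the tail knockouts and 8933, 8950 and 7267 in the back knockouts. No library of one group overlapped with another group, and the knockout back mean of 8383 ± 966 was 19.3 times the control mean of 433 ± 274 (SD, n = 3). Psmb9, the subunit encoded next to Tap1, had 147, 192 and 7.29 in the tail controls, the last from 9 counts. It had 744, 608 and 365 in the tail knockouts and 4396, 3851 and 2465 in the back knockouts, again without overlap between any groups. The means were 116 ± 96.4, 573 ± 192 and 3571 ± 995 (SD, n = 3), so knockout back lay 6.24-fold above knockout tail.

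Psmb10, the remaining catalytic subunit, did not share that pattern. Its normalised counts were 1982, 2034 and 2055 in the tail controls, 2988, 4274 and 2735 in the tail knockouts, and 3629, 1878 and 3266 in the back knockouts. Tail knockouts lay above control tail in every library, while the back libraries spanned both, with its second library the lowest of all 9. Psme1, a PA28 subunit, had 5468, 6935 and 3643 in the tail controls, 6369, 6368 and 7756 in the tail knockouts, and 11987, 17528 and 8805 in the back knockouts. The tail groups overlapped, and every back library lay above both. Its partner Psme2 had 5205 ± 687, 7507 ± 1686 and 13240 ± 4022 (SD, n = 3) normalised counts in the same order of groups.

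**Figure D1:**
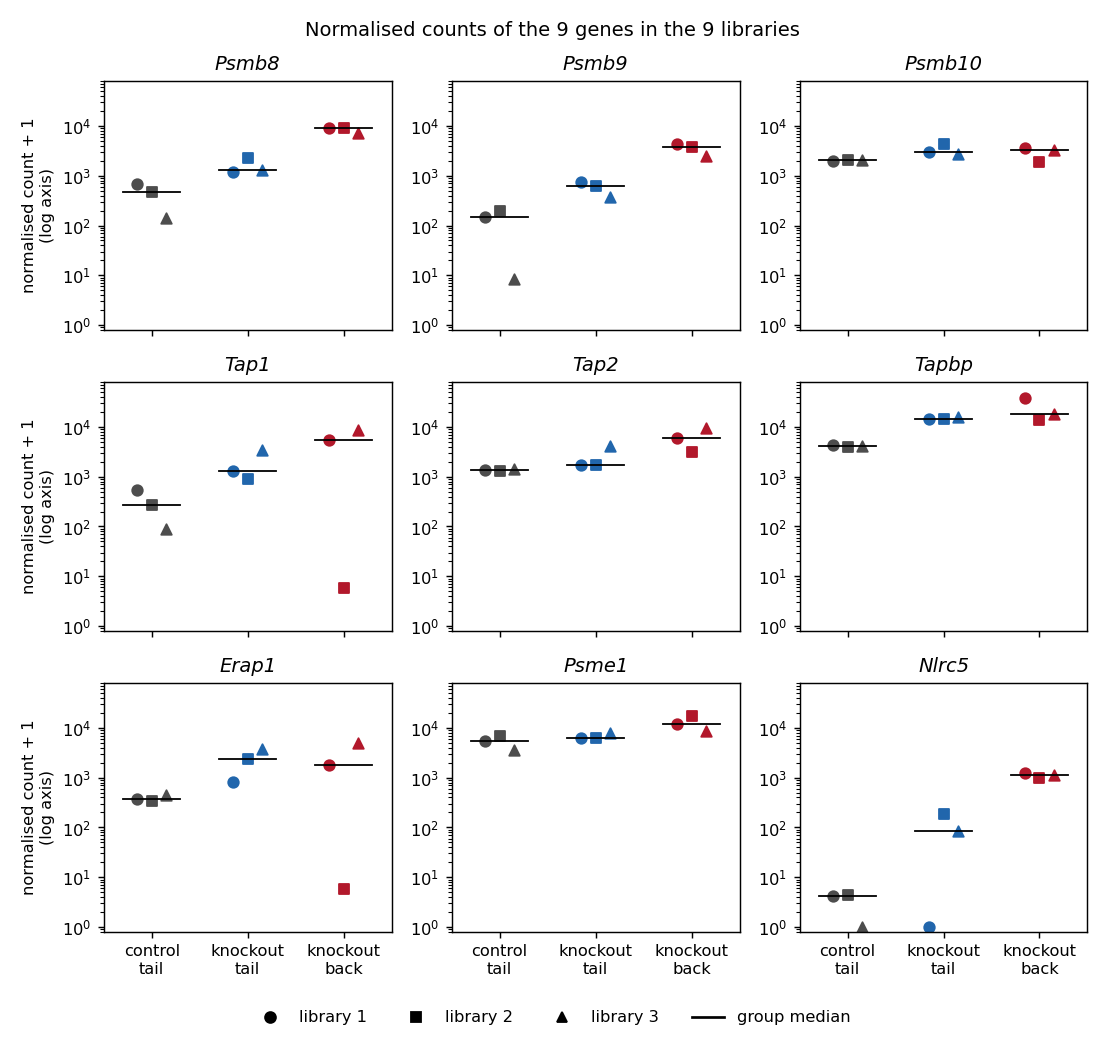
Normalised counts plus 1 on a log axis for the 9 genes, 1 panel per gene, with 1 point per library (symbol: replicate number) and a line at the group median. Psmb8 and Psmb9 separate the 3 groups, Nlrc5 is near 0 in the tail controls and between 978 and 1255 in the back knockouts, and Tap1 and Erap1 drop to 4.68 in the second knockout back library.

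Of the peptide pump, Tap1 had normalised counts of 552, 268 and 89.9 in the tail controls and 1314, 891 and 3437 in the tail knockouts, without overlap. In knockout back it had 5346, 4.68 and 8681. The 4.68 comes from 4 recovered counts, in the same library that had 7653 counts of the neighbouring Psmb8. Tap2 had 1353, 1278 and 1460 in the tail controls, 1701, 1689 and 4226 in the tail knockouts, and 6027, 3177 and 9357 in the back knockouts. Each knockout library exceeded each control, but the third knockout tail library lay inside the back range. Between the means of 1364 ± 91.5 in the tail controls and 6187 ± 3093 in the back knockouts (SD, n = 3) the ratio was 4.54.

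Tapbp, the tapasin gene, separated the tail groups with little spread within each. It had 4277, 4037 and 4105 in the tail controls and 14649, 14618 and 15940 in the tail knockouts, a 3.64-fold difference of means. Knockout back had 37980, 14044 and 18435, so back and tail knockouts overlapped and all 6 lay above control. Erap1 had 366, 335 and 457 in the tail controls and 803, 2353 and 3819 in the tail knockouts, without overlap. In knockout back it had 1796, 4.68 and 5025, with the same second library at 4 recovered counts as for Tap1. Over the 9 libraries Tap1 and Erap1 had a Pearson r of 0.93 on log2 of the normalised count plus 1, and of 0.83 without that library.

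Nlrc5 was close to absent from the tail libraries. Recovered counts were 4, 4 and 0 in the tail controls, 0, 217 and 71 in the tail knockouts, and 1165, 836 and 1133 in the back knockouts. In normalised counts the back libraries held 1255, 978 and 1110, all above the highest tail value of 183. The tail groups overlapped, since the first knockout tail library was at 0 like the third control. No fold is given against control, whose libraries hold at most 4 counts.

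Per kilobase of annotated exon, the order of the 9 genes within a group can be read, with the limit that the exons of all annotated transcripts were joined. In control tail Psme1 was highest at 2421 ± 747 normalised counts per kb. Psmb10 (1187 ± 21.9) and Tapbp (1141 ± 34.1) followed and overlapped. Tap2 stood at 361 ± 24.2, while Psmb8 (128 ± 80.9), Tap1 (55.4 ± 42.6), Erap1 (53 ± 8.73) and Psmb9 (31.6 ± 26.3) overlapped. Nlrc5 was lowest at 0.254 ± 0.22. In knockout back the top of the order was Tapbp (6474 ± 3512) and Psme1 (5782 ± 1998), which overlapped, then Psmb8 (2480 ± 286, all SD, n = 3). Psmb8 overlapped with Tap2, since the third back library had 2150 of Psmb8 and 2475 of Tap2.

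The first comparison holds the body site at tail and sets the genotypes against each other. Tapbp, Tap1, Tap2, Psmb8, Psmb9, Psmb10 and Erap1 lay higher in every knockout library than in any control in normalised counts. That is 7 of 9, where 9.70% of all genes had this arrangement. In the deposited values, which lack the removed shift, it held for 4 of 9 (Tapbp, Psmb9, Psmb10 and Erap1), against 6.44% of all genes. None of the 9 passed the test. The limma fit on deposited values called 0 of 9 at an adjusted p of 0.05 or less, and also 0% of all genes. At an unadjusted p under 0.05 it gave 1 of the 9, Tapbp, beside 2.33% of all genes on the higher side, and limma-voom on recovered counts also called 0. The fitted differences were all positive, from 0.14 for Tap2 to 1.49 ± 0.42 (SE) for Tapbp (adjusted p = 0.67), with a median of 0.80 against -0.05 over all genes. With the library set as a term, a fit unaffected by the shift removal, the difference of Tapbp was 1.78 (adjusted p = 0.22), that of Psmb8 1.38 (adjusted p = 0.52) and that of Psmb9 1.33 (adjusted p = 0.57), and 0 of the 9 were called, beside 0.0429% of all genes called higher. The difference of Nlrc5 was 0.31, and -0.08 without the second knockout tail library.

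The second comparison sets both knockout groups side by side, so that the body site differs and the genotype does not. Psmb8, Psmb9, Nlrc5 and Psme1 lay higher in every back library than in any tail library, 4 of 9 where 4.55% of all genes did so in normalised counts. In deposited values Tap2 joined them, 5 of 9 against 7.53% of all genes. The limma fit called 0 of the 9 as higher, while 0.411% of all genes were, and again 0 of the 9 with the library set as a term (0.141% of all genes). None passed, with 4 at an adjusted p under 0.1. Nlrc5 differed by 1.97 ± 0.40 (adjusted p = 0.051), Psmb8 by 2.15 ± 0.48 (adjusted p = 0.062), Psmb9 by 1.99 ± 0.48 (adjusted p = 0.070) and Tap2 by 1.14 ± 0.28 (adjusted p = 0.072), each with its SE. The median over the 9 was 0.81 against -0.18 over all genes. Tap1 (0.24), Tapbp (0.50), Psmb10 (-0.18) and Erap1 (-0.69) had smaller differences relative to their SE (0.95, 0.42, 0.30 and 0.72). Without the second knockout back library, Tap1 differed by 1.37, Erap1 by 0.14 and Psmb10 by 0.03, none past the threshold. Without the first back library Tap1 (-0.80) and Tapbp (-0.04) turned negative. Without the third back library Psmb8, Psmb9, Nlrc5 and Tap2 passed (adjusted p of 0.018 to 0.037), in a fit that also called 1972 genes in all.

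The third comparison, knockout back against control tail, differs in genotype and site at once, which cannot be told apart here. It shares its libraries with both others. Psmb8, Psmb9 and Nlrc5 rose. The limma difference was 3.18 ± 0.48 for Psmb8 (adjusted p = 0.039), 2.99 ± 0.48 for Psmb9 (adjusted p = 0.042) and 2.28 ± 0.40 for Nlrc5 (adjusted p = 0.046), each with its SE and higher in 3 of 3 back libraries. This is 3 of 9 genes called higher, where 0.387% of all genes were. The median over the 9 was 1.28 against -0.23 over all genes. Tapbp (1.99, adjusted p = 0.053), Tap2 (1.28, adjusted p = 0.055) and Psme1 (1.12, adjusted p = 0.073) did not pass, though these also lay above control in every back library. In all 6 of the 9 genes had that arrangement, beside 7.41% of all genes, and the same count held in deposited values beside 8.68%. With the library set as a term Tapbp (2.28, adjusted p = 0.028) and Tap2 (1.40, adjusted p = 0.049) passed too, 5 of 9 against 1.05% of all genes called higher. The 3 calls were lost, at adjusted p of 0.062 to 0.14, when any 1 of the control libraries, the first or second knockout tail library, or the first or second back library was left out. In those 7 fits 0 to 11 of all genes were called. Limma-voom on recovered counts called 2 of the 9, Psmb8 (adjusted p = 0.035) and Tapbp (0.043), and lost Psmb9 (0.051) and Nlrc5 (0.05 as rounded, just above the threshold). The replicate block, in which equal library numbers are matched, lost Nlrc5 (adjusted p = 0.081). Without the third knockout tail library Nlrc5 was lost (adjusted p = 0.065), and without the third back library 6 of the 9 genes passed.

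**Figure D2:**
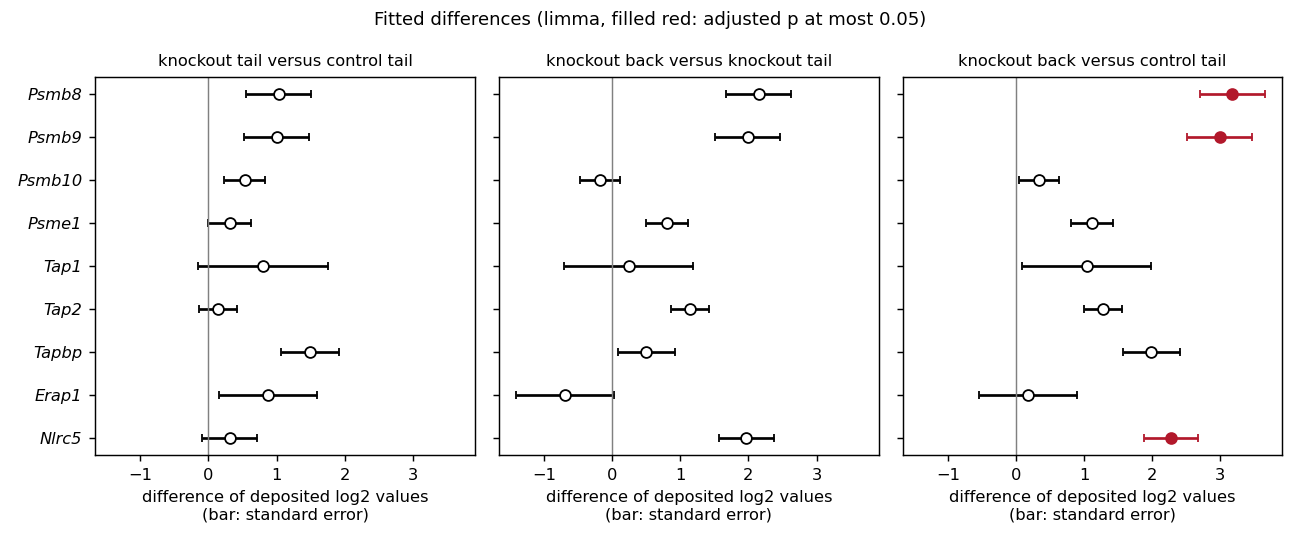
Fitted difference of deposited log2 values (x axis, bar: standard error) for the 9 genes in the 3 comparisons, from limma on all 9 libraries. Filled red points, Psmb8, Psmb9 and Nlrc5 in knockout back versus control tail, have an adjusted p of 0.05 or less, and Erap1 and Tap1 have the widest bars (0.72 and 0.95).

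The share of immunoproteasome subunits was followed by the ratio of each to its constitutive counterpart within a library, which cancels the scaling of that library. Per kilobase of exon, Psmb8 stood at 0.0124, 0.00671 and 0.0031 of Psmb5 in the tail controls. It stood at 0.0188, 0.0421 and 0.0447 in the tail knockouts and at 0.0971, 0.172 and 0.298 in the back knockouts. The groups did not overlap, and the constitutive transcript was the more abundant per kilobase in all 9 libraries. That order depends on the joined exon lengths, 3.38 kb for Psmb8. In counts not divided by length, Psmb8 stood at 1.12 of Psmb5 in the third back library. Psmb9 stood at 0.00265, 0.00279 and 9.36e-05 of Psmb6 in the tail controls, 0.0149, 0.0119 and 0.0131 in the tail knockouts, and 0.0891, 0.0507 and 0.0919 in back, also without overlap. Psmb10 relative to Psmb7 was 0.64, 0.542 and 0.896 in the tail controls and 1.02, 1.64 and 1.13 in the tail knockouts, which did not overlap. It was 0.862, 0.581 and 1.26 in back, which overlapped with both.

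On the log2 scale the ratio Psmb8/Psmb5 was higher by 2.37 between the tail controls and tail knockouts, and by a further 2.38 between tail and back knockouts. For Psmb9/Psmb6 these differences were 3.91 and 2.49, and for Psmb10/Psmb7 0.87 and -0.52. Exact two-sided permutation tests over 3 against 3 libraries gave p = 0.1, the smallest that this design can give, for 7 of the 9 ratio comparisons (Benjamini-Hochberg adjusted over the 9, 0.13). The other two were Psmb10/Psmb7 in back against knockout tail (p = 0.3, adjusted 0.34, exact) and against control tail (difference 0.34, p = 0.5, adjusted 0.50, exact). No ratio can therefore pass a threshold of 0.05 here. The Psmb9/Psmb6 difference between the tail groups was 2.29 without the third control library. It was 1.30, and that of Psmb8/Psmb5 0.94, in the deposited values. Psmb5, Psmb6 and Psmb7 themselves had fitted differences of deposited values between -0.31 and 0.29 in the 3 comparisons, none of which passed. The ratios rest on normalised counts, in which these genes were less even. Psmb6 had 28467 to 39812 in the tail controls, 14267 to 26036 in the tail knockouts and 13722 to 38885 in back. Psmb5 had 7854 in the third tail knockout and 6475 in the third back library, against 12275 to 24453 elsewhere.

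**Figure D3:**
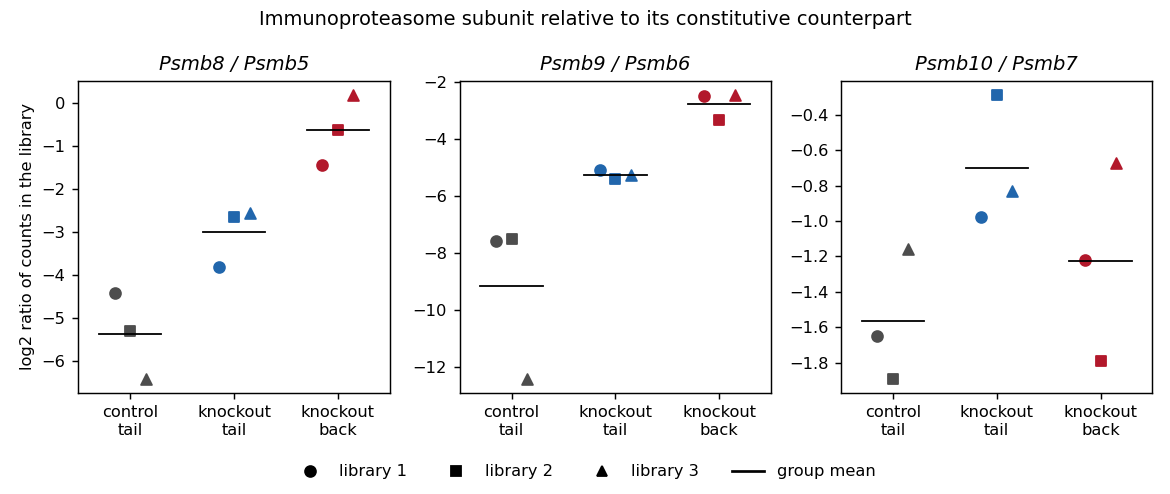
Log2 ratio of the counts, not per kilobase, of an immunoproteasome subunit to those of its constitutive counterpart in each library (symbol: replicate number), with the group mean as a line. Psmb8/Psmb5 and Psmb9/Psmb6 increase from group to group without overlap, and the lowest point, -12.42, is the third control library with 9 counts of Psmb9.

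Across the 9 libraries Psmb8 and Psmb9 were the pair with the most similar levels (Pearson r of 0.96 on log2 of the normalised count plus 1), and r between Psmb8 and Nlrc5 was 0.91. Tap1 and Psmb9, the head-to-head pair, had an r of 0.22 over all 9 libraries and of 0.90 without the second back library, a setting added after seeing the data. Likewise r between Erap1 and Psme1 was -0.39 with that library and 0.60 without it. Each gene's r with the mean of the other 8 ranged from 0.28 for Erap1 to 0.91 for Tapbp. Without the second back library the same r lay between 0.77 for Psmb10 and 0.97 for Psmb8, with 0.83 for Erap1. The low values for Erap1 and Tap1 (0.49, and 0.94 without it) thus rest on that 1 library. These are descriptions over points that share libraries and groups.

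**Figure D4:**
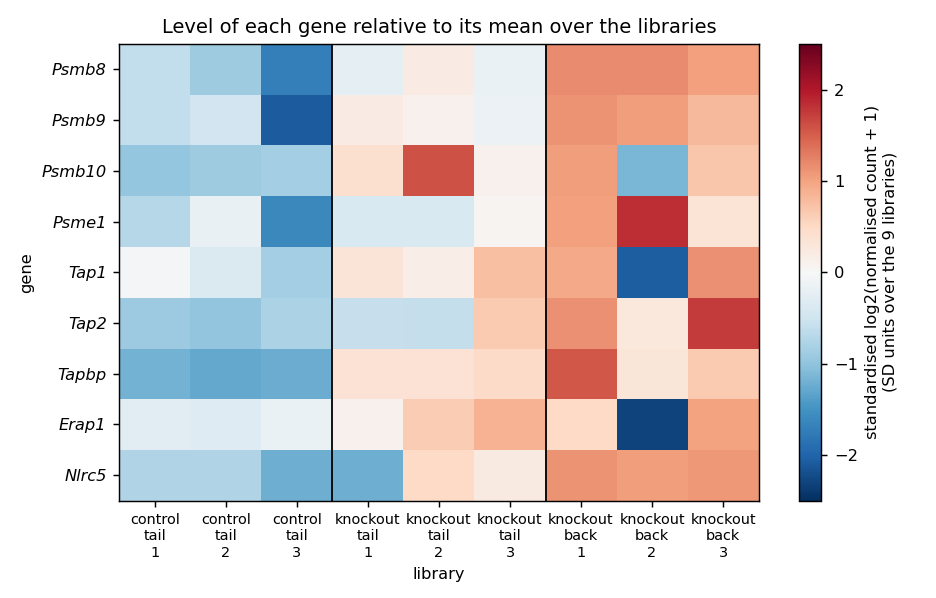
Standardised log2 of the normalised count plus 1 (colour, SD units over the 9 libraries) for each gene (rows) in each library (columns, grouped by condition). Psmb8, Psmb9 and Nlrc5 are high in all 3 back libraries, while the second back library is low for Tap1, Erap1 and Psmb10 and the highest of all for Psme1.

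The genes whose pattern was most like the mean of the 9 standardised genes, among 14055 with a mean normalised count of at least 50, were Irgm1, Igtp, Abr and Dkk3 (r of 0.97 each), Brip1os (0.96), Gbp7, Usp53 and Irf7 (0.95 each), and Bst2 and Marchf7 (0.94 each), over 9 libraries. Irgm1, Igtp and Gbp7 encode interferon-inducible GTPases, Irf7 an interferon regulatory factor and Bst2 the antiviral protein tetherin. Igtp, chosen after its values were seen, had 250, 403 and 176 normalised counts in the tail controls. It had 2244, 2233 and 2391 in the tail knockouts and 16140, 3518 and 11497 in back. The groups of Igtp and of Bst2 did not overlap. In every other gene named here the second back library lay below the highest tail knockout. Irgm1, for example, had 6406 against 9394, Irf7 4067 against 7762 and Abr 1038 against 2283. For Abr that back library also lay inside the control range.

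Other genes of the route were read from lists. Of 8 class I heavy chain genes, 0 were called in knockout tail against control tail. In back against knockout tail 4 rose (H2-K1, H2-D1, H2-Q6 and H2-Q7), where 0.411% of all genes did. In back against control tail 5 rose, the same 4 and H2-T23, where 0.387% of all genes did. The list's median differences were 0.31, 1.76 and 2.73. H2-K1, a heavy chain that these peptides fill, had 5882, 5705 and 5639 normalised counts in the tail controls, 9937, 11334 and 12963 in the tail knockouts and 66048, 64063 and 82413 in back. In back against knockout tail it rose by 2.58 (limma adjusted p = 0.021). These paralogues can share reads, so the split among them is uncertain.

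Of 14 further genes of the loading complex and endoplasmic reticulum 1 was called, B2m, the class I light chain, which rose by 2.62 in back against control tail (limma adjusted p = 0.039). Calreticulin (Calr), a chaperone of the loading complex, had 19844, 22451 and 20634 normalised counts in the tail controls and 38209, 39682 and 41434 in the tail knockouts. It had 16156, 30317 and 28550 in back, so every tail knockout lay above every other library, with differences of 0.77 against control and -0.71 for back against knockout tail, neither past the threshold (adjusted p = 0.70 and 0.12). Of 10 genes of cytosolic peptidases and other PA28 subunits, and of 19 core proteasome and assembly genes, 0 were called in any of the 3 comparisons. The core list's median differences were -0.19, 0.12 and -0.09, beside 0.80, 0.81 and 1.28 for the 9 genes. In back against control tail 4 of the 19 core genes had an unadjusted p under 0.05, a share no higher than that of all genes (4255 of 16299).

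Among the regulators of these genes, Stat2, a transcription factor of type I interferon signalling, rose by 2.43 in back against control tail (limma adjusted p = 0.045). Irf1, a regulatory factor known for driving Psmb9 and Tap1, had 270, 686 and 299 in the tail controls, 388, 1971 and 1814 in the tail knockouts and 3311, 0 and 9244 in back. The 0 was in the second back library, in which Tap1 and Erap1 were at 4 counts but Psmb9 had 3293. That library had 6127 genes without a count. No difference of Irf1 passed, and its part in these levels was not tested. The calls of B2m, H2 genes and Stat2 in back against control tail did not hold without any 1 control, the first tail knockout or the first back library, where 0 of all genes were called.

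Markers of immune cells, which carry immunoproteasomes, moved with some of these differences. Of 13 markers of Langerhans and other myeloid cells 9 had values, and their summed normalised counts were 155 to 486 in the tail controls, 595 to 10624 in the tail knockouts and 7169 to 24347 in back. None of the 9 was at 0 in all libraries of a group. Most of the back sum came from Cd74 and the class II genes, while Ptprc, the pan-leukocyte marker, had 0, 265 and 20.6 in the 3 back libraries. In the second of these Lyz2 stood at 5372 and Tyrobp at 1497, against at most 364 and 3.94 in the tail controls. The other back libraries had 126 and 127 of Lyz2, within the control range of 91 to 364, and 8.61 and 32.3 of Tyrobp. Csf1r averaged 16.9 in the tail controls, 177 in the tail knockouts and 26 in back. Of 12 T and NK cell markers 5 had values, summing to 43.4 to 122, 29.9 to 359 and 46.3 to 936. Library by library, the myeloid sums were 486, 427 and 155 in the tail controls and 1119, 595 and 10624 in the tail knockouts. In back they were 7169, 20697 and 24347. The counts of the 9 genes in the same libraries are given above. The part of such cells in the other results was not tested.

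Keratinocyte content differed between libraries as well. The 6 basal markers summed to 324383 in the third tail knockout library and 189571 in the third back library, the highest of all, against 12363 to 119701 in the other 7. The 7 differentiated markers gave another order, with 207585 in the second back library, 149764 in the third tail knockout and 109940 in the second control. The third back library had 57692 of these. In the second back library Tap1 and Erap1 were at 4.68. The third tail knockout and the third back library had the highest Tap1 of the tail and back groups (3437 and 8681), the highest Tap2 (4226 and 9357) and the highest Erap1 (3819 and 5025), but not the highest Psmb8 or Psmb9. They are also the set whose shift was removed, and in the deposited values the order turned. There the third tail knockout was the lowest of its group for Tap1 (10.67), Tap2 (11.49) and Erap1 (10.95), and the third back library lay below the first for all of these. The part of keratinocyte RNA in those levels was not tested. The 5 red blood cell markers summed to 9216, 632 and 1029 in the tail controls and 84023, 105763 and 2471 in the tail knockouts. In back they summed to 6044, 14999 and 25637, and their part was not tested either.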

How the data were processed

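The authors deposited 1 table of log2 values for 16299 genes in 9 libraries, made with a SMART-Seq low-input kit and read as paired ends of 150 bases, per the labels' protocols. The submitters' processing notes name DESeq2 and GRCm38, with no version or role. Aligner and counter, like strandedness, were not given in the sources used here. Log2 values of 0 counts lie near 7.98 before a gene-wise shift between 2 library sets (median size 0.45), which had been removed before deposit, since the set means agree to within 7.14e-09 in every gene. The scale understates changes of genes with few counts.

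Undoing both steps gave whole counts for 16296 genes (tolerance 0.004), in a step tested on simulated data. Hyphens were restored in 351 symbols.

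Differences were tested with limma 3.58.1 (R 4.3.3; trend, robust) on deposited values of all libraries by group, with no filter and Benjamini-Hochberg adjustment over all genes at 0.05. The fit was tested on simulated data. Alternatives included limma-voom with TMM factors. Ratios were tested by exact permutation (scipy 1.17.1). Named genes are the 9, fixed companions, called list members and the 10 of most similar pattern; values of Igtp, Calr, Spry1 and single markers were added after they were seen. Genes, lists and tests were chosen with earlier results of these data known. One item of the regulator list is not reported here.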

Additional observations from a re-analysis of the deposited data

How the results depend on the processing

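Of the 9 genes, 0 were called in knockout tail against control tail in every setting planned, including each fit that left out 1 library (0 to 0), and 1, Tapbp, was called with the removed shift put back and without the first and second knockout back libraries (difference 1.75, adjusted p = 0.027), a setting chosen after seeing the data. In knockout back against knockout tail the count was 0. It was 1 with limma-voom (Psmb8), 1 with limma-voom and the library set as a term (added after seeing the data), 1 without trend and robust moderation (Nlrc5), 2 with quantile normalisation (Psmb9 and Nlrc5), 3 in the 7 libraries of the larger set and 4 with array weights, and 0 to 4 when 1 library was left out. In back against control tail the count of 3 became 2 with limma-voom (Psmb8 and Tapbp), 2 with the replicate block, 2 in either setting added after seeing the data, 4 without trend and robust moderation, 4 with the shift put back, 5 with the library set as a term, 5 with quantile normalisation, 5 with array weights, 6 in the 7 libraries of the larger set, 0 without the first and second back libraries, and 0 to 6 when 1 library was left out. The fit left with 1 back library assumes that it varies like the other groups.

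Signs that turned were all of differences that did not pass. In back against knockout tail, Tap1 was -1.03 with limma-voom, -0.26 in the larger set, -0.16 without the third knockout tail and -0.80 without the first back library, and at most 1.37 when 1 library was left out. Tapbp was -0.14 with array weights, -0.23 without the first and second back libraries and -0.04 without the first, and at most 0.86. Erap1 was 0.14 without the second back library and 1.15 with the shift put back and the first and second left out, with -1.35 as its lowest value without 1 library. Psmb10 was 0.02 without the second knockout tail and 0.03 without the second back library, and at least -0.37. In back against control tail, Erap1 was -0.03 with limma-voom and -0.48 without the first back library, and at most 1.01. In knockout tail against control tail, Nlrc5 was -0.08 without the second knockout tail library and at most 0.52. The cause of these turns was not tested. None of the 9 ratio differences changed sign.

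The libraries share only a replicate number. Correlations of same-numbered deviations from group means were -0.70 to 0.08 in the deposited values, and with the shift put back 5 of 9 libraries correlated best with their own number. With the replicate block in back against control tail 2 of the 9 genes were called, Nlrc5 no longer (adjusted p = 0.081), and 42 genes in all against 163. In back against knockout tail the block gave 21 genes in all against 244 and again 0 of the 9, and in knockout tail against control tail 0 of the 9. Counts over all genes also moved with the settings. Back against knockout tail gave 244 genes, 71 with the set term, 31 with the shift put back, 1325 with array weights and 1637 in the larger set. Back against control tail gave 163, and 545, 217, 903 and 2371 in those settings. It gave 322 with limma-voom, 579 with quantile normalisation and 471 without trend and robust moderation. Both gave 0 without the first and second back libraries, and 3 to 1972 and 0 to 2804 when 1 library was left out. Knockout tail against control tail gave 0, 10 with the set term and 6 with the shift put back. Nlrc5 in the tail controls and the lowest values of Psmb9, Tap1 and Erap1 rest on 0 to 9 counts and have wide counting error. The lowest Tap1 and Erap1 are in the second back library, with 47734737 recovered counts against 45658165 in the shallowest library. It also had the smallest size factor (0.8551) and the most genes without a count (6127).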
